A study of Rattus norvegicus with 28 samples.

Results

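Plvap and Ackr1 are genes of venular endothelium, and their RNA was followed here in endothelial cells of rat hearts before and after transplantation. They are 2 of the 14217 genes measured, and each had 1 probe set of the 31099 on the array. Both were chosen by their levels in these data, because they were high in matched as well as mismatched grafts. The graft against normal values below are therefore a description and carry no test.

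Plasmalemma vesicle associated protein, the product of Plvap, builds the thin diaphragms that span fenestrae, the necks of caveolae and transendothelial channels, and it limits what crosses the vessel wall. It is known as a protein of fenestrated capillaries and of venules. ACKR1, also called DARC or the Duffy antigen, is an atypical chemokine receptor that binds many inflammatory CC and CXC chemokines without signalling through G proteins. Postcapillary venules use it to carry chemokines to their luminal face, where leukocytes attach, and in humans red cells carry it as a blood group antigen.

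Endothelial cells of male rats were measured on 24 Affymetrix arrays in 8 groups of 3 biological replicates. They were normal DA (Dark Agouti) hearts, normal Lewis hearts, allografts and isografts, each graft type taken 2, 3 and 4 days after surgery. Allografts were DA hearts in Lewis recipients, mismatched, and isografts were Lewis hearts in recipients of their own strain. Each heart had been placed in the recipient's neck with a cuff technique, and its endothelium had been enriched on beads for CD31 after removal of cells carrying CD45. The other 4 arrays held Lewis leukocytes of allografts, 1 of day 2, 2 of day 3 and 1 of day 4. No sham-operated heart is among the groups, so surgery, ischaemia and the graft's surroundings cannot be told apart. All values are log2 signals, in which a difference of 1 is a doubling.

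Endothelial markers were high in every preparation. The 11 measured genes of a 13-gene endothelial list had group means of 11.9 to 12.2 in all 8 groups, and none was under the median of all values, 7.63. Leukocyte RNA moved with grafting: an 11-gene leukocyte list averaged 7.27 in DA and 7.56 in Lewis normal endothelium, 8.28 to 8.82 in isografts and 9.11 to 9.53 in allografts, against 12.3 on the leukocyte arrays. T cell markers averaged 5.90 in Lewis and 5.84 in DA normal endothelium, 6.27 to 6.41 in isografts and 6.87 to 7.62 in allografts. All 11 measured were called higher in day 4 allografts, as were 7.19% of all genes. A 10-gene fibroblast list averaged 7.34 in Lewis normal endothelium and 8.29, 8.17 and 9.59 in isografts of days 2, 3 and 4, and 7.72 in DA normal endothelium and 9.12, 8.41 and 9.83 in allografts. Its genes did not all move alike: in isografts of days 2 and 3 Postn differed by 3.54 and 3.72 and Dcn by -0.82 and -1.50. Array means of this list also spread widely, from 7.69 to 11.19 in day 2 allografts beside 7.15 to 8.04 in DA normal endothelium. Cardiomyocyte markers ran the other way, from 7.67 in Lewis normal endothelium to 6.43 to 6.62 in isografts and from 6.49 in DA to 5.92 to 6.27 in allografts. The part of these cell types in the Plvap and Ackr1 levels was not tested. In bulk RNA like this, fewer cells of a type and less RNA per cell cannot be told apart.

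Plvap lies on chromosome 16 (chr16:18218966-18231279, minus strand, GRCr8), and Ackr1 on chromosome 13 (chr13:88314735-88316354, GRCr8). The 250 bases before the start of Plvap (RefSeq, GRCr8, chr16:18231280-18231529, minus strand) are shown because they are the stretch in which short motifs of endothelial and inflammatory factors were looked for. Capitals mark matches to the TATA box and to the core of ETS factors, a family with several members active in endothelium.
Plvap promoter: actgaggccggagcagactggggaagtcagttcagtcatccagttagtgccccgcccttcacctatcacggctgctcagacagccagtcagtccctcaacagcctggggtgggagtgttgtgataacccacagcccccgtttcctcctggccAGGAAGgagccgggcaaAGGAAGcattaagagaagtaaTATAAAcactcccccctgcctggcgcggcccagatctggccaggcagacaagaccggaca
Both strands were searched. The TATA letters TATAAA begin 60 bases before the start and occur in 12.9% of 33469 rat promoters of the same length. The ETS core AGGAAG occurs 2 times, 98 and 81 bases before the start, and 29.5% of promoters hold it. The Sp1 core GGGCGG is found 1 time, on the opposite strand 199 bases before the start, and 30.5% of promoters hold it. The letters AGATAA, a core of GATA factors, are in 10.3% of promoters and not in this window. The letters AACAAT, bound by SOX factors and held by 10.3% of promoters, and the NF-kB consensus, held by 3.54%, are likewise not in this window. Other spellings of the cores were not searched for, and the window does hold TGATAA, which differs from AGATAA only in its first letter. The absence of the letters searched is therefore not the absence of every site for these factors. No match overlaps another, and none is evidence of binding.

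Plvap was lower in normal endothelium than in every graft. Its mean exceeded that of 57.4% of genes in Lewis and 67.8% in DA normal endothelium, and that of 89.9% to 92.7% in the graft groups. The 3 Lewis normal arrays read 7.68, 8.17 and 8.29, and the 3 DA normal arrays 9.29, 8.46 and 8.51. Isografts read 10.21, 10.55 and 10.64 on day 2, then 10.57, 10.35 and 10.35 on day 3, and 11.03, 10.76 and 10.16 on day 4. Allografts read 10.61, 10.54 and 11.06 on day 2, then 10.97, 10.42 and 9.95 on day 3, and 10.63, 11.04 and 10.88 on day 4. Each of the 18 graft arrays lay above each of the 6 normal arrays; the highest normal array, DA replicate 1, and the lowest graft array, allograft day 3 replicate 3, were 0.66 apart.

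**Figure D1:**
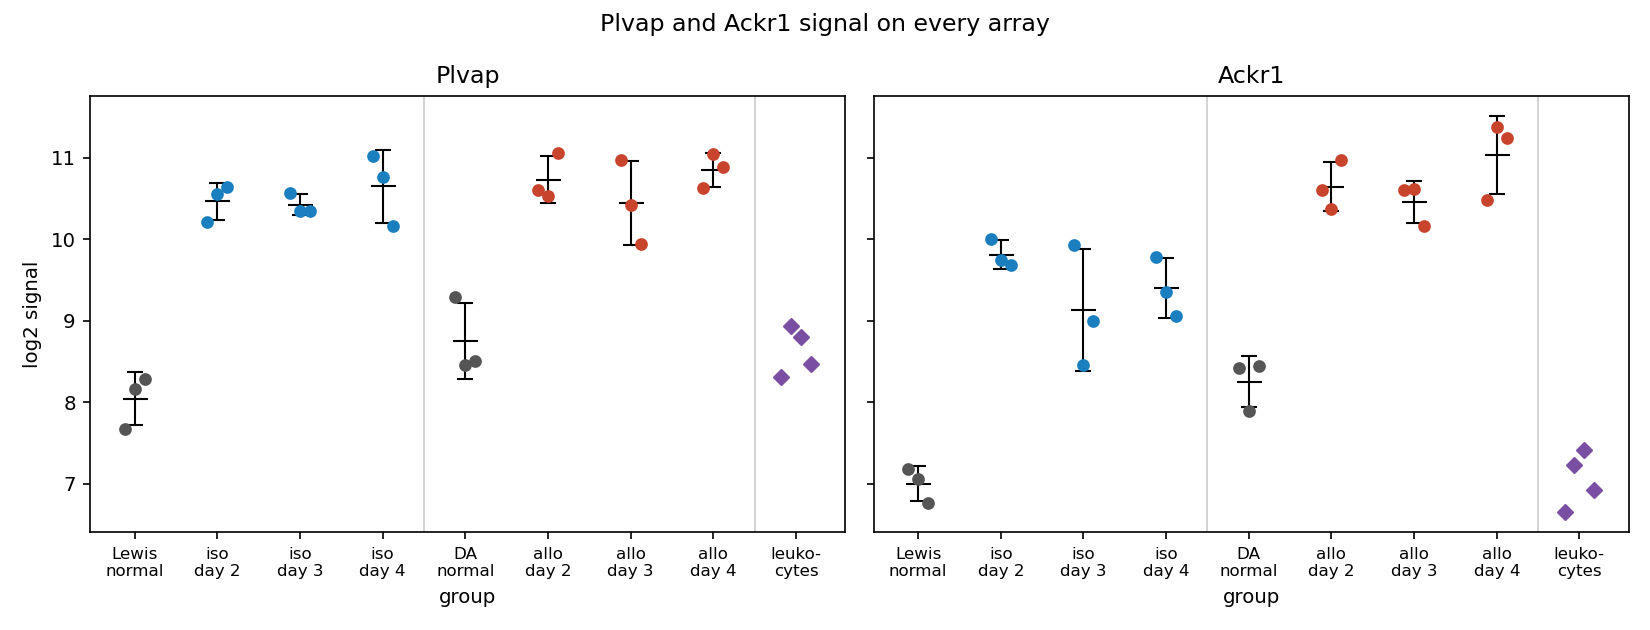
Log2 signal of Plvap (left) and Ackr1 (right) on every array, by group. Circles are single endothelial arrays, the horizontal dash and bars give the mean and SD of 3 arrays, and diamonds are the 4 leukocyte arrays after removal of the offset between both sets of arrays. Plvap grafts lie at 9.95 to 11.06 in both graft types, whereas the Ackr1 allografts, at 10.17 to 11.38, lie above the isografts, at 8.45 to 10.01.

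Against its own normal strain, Plvap stood 2.42, 2.38 and 2.61 higher in isografts on days 2, 3 and 4, that is 5.36-fold, 5.21-fold and 6.09-fold (SE of each 0.26 log2). In allografts the differences were 1.98, 1.69 and 2.10, or 3.95-fold, 3.23-fold and 4.29-fold. By size, Plvap held places 24, 49 and 60 among the 14217 genes in isografts and 114, 114 and 174 in allografts. All 3 arrays of a group lay above all 3 normal arrays in each of the 6 comparisons, an outcome that 9.87%, 12.2% and 12.9% of all genes showed upward in isografts and 12.2%, 10.4% and 14.0% in allografts.

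Ackr1 was also lowest in normal endothelium, and here allografts and isografts separated. The Lewis normal arrays read 7.18, 7.06 and 6.76 and the DA normal arrays 8.42, 7.90 and 8.45. Isografts read 10.01, 9.74 and 9.68 on day 2, then 9.93, 8.45 and 8.998 on day 3, and 9.79, 9.35 and 9.06 on day 4. Allografts read 10.60, 10.38 and 10.97 on day 2, then 10.61, 10.61 and 10.17 on day 3, and 10.49, 11.38 and 11.24 on day 4. Every graft array lay above every normal array of its own strain, while the lowest isograft array, replicate 2 of day 3, was level with the highest DA normal array.

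The Ackr1 differences from the strain's own normal endothelium were 2.81, 2.13 and 2.40 in isografts, or 7.02-fold, 4.37-fold and 5.27-fold (SE of each 0.30 log2). They were 2.39, 2.21 and 2.78 in allografts, or 5.26-fold, 4.63-fold and 6.88-fold. Its places by size were 13, 62 and 73 in isografts and 69, 61 and 76 in allografts. The day 3 isograft value rested partly on replicate 1, without which it was 1.72.

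**Figure D2:**
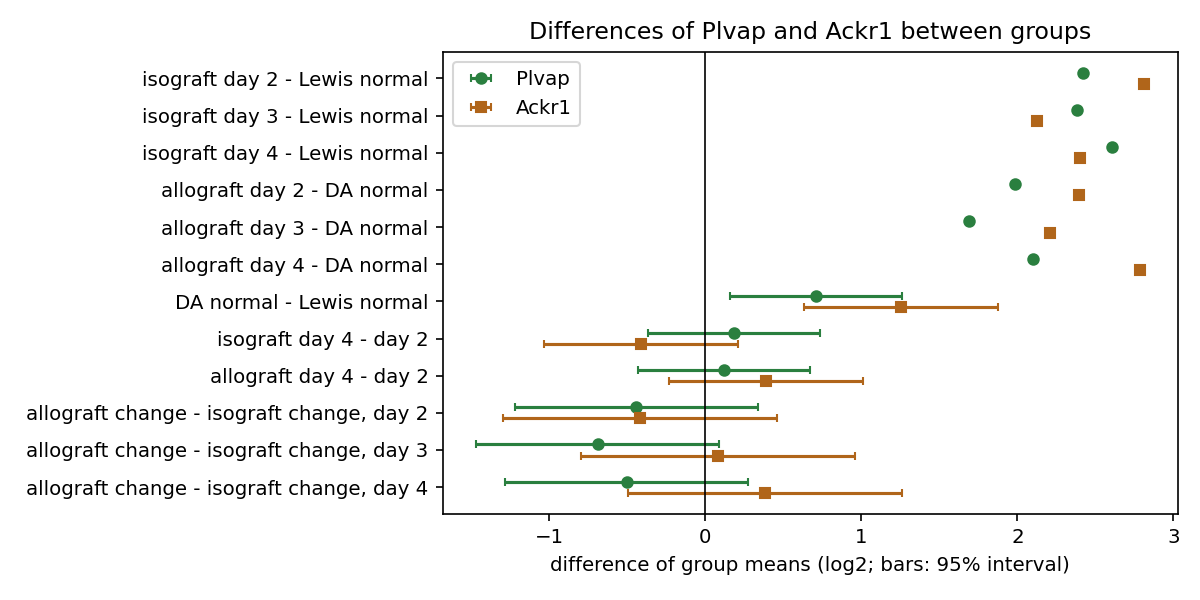
Differences of group means (log2) for Plvap (circles) and Ackr1 (squares). The first 6 lines are the comparisons that chose the genes and have no bars; bars on the others are 95% intervals. The graft minus normal points lie between 1.69 and 2.81, and of the tested comparisons the intervals of DA against Lewis normal endothelium lie above 0 for both genes.

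The order of the group means differed between the genes. For Plvap it ran from Lewis normal (8.04 ± 0.32, SD, n = 3) and DA normal (8.75 ± 0.46) to isograft day 3 (10.42 ± 0.13), allograft day 3 (10.44 ± 0.51), isograft day 2 (10.47 ± 0.23), isograft day 4 (10.65 ± 0.44), allograft day 2 (10.73 ± 0.29) and allograft day 4 (10.85 ± 0.21). The 6 graft groups overlapped from each neighbour to the next, and the large step, 1.67, was that from normal to graft. For Ackr1 the order was Lewis normal (7.0 ± 0.22), DA normal (8.25 ± 0.31), isograft day 3 (9.13 ± 0.75), isograft day 4 (9.40 ± 0.37), isograft day 2 (9.81 ± 0.17), allograft day 3 (10.46 ± 0.26), allograft day 2 (10.65 ± 0.30) and allograft day 4 (11.04 ± 0.48). Here 3 steps separated neighbours without overlap, Lewis normal to DA normal, DA normal to isograft day 3 and isograft day 2 to allograft day 3. The middle one of these was narrow, with the highest DA normal and the lowest day 3 isograft array both at 8.45. How many of all genes show such steps was not counted.

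All 9 allograft arrays lay above all 9 isograft arrays for Ackr1, the lowest allograft at 10.17 and the highest isograft at 10.01. Of all genes 0.535% showed this pattern, which was looked at after the values were seen. The allograft means exceeded the isograft means by 0.84, 1.34 and 1.64 on days 2, 3 and 4, and normal DA endothelium exceeded normal Lewis endothelium by 1.25. For Plvap the same differences were 0.27, 0.02 and 0.20 between grafts and 0.71 between normal hearts, and the allograft arrays (9.95 to 11.06) and isograft arrays (10.16 to 11.03) overlapped.

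Normal hearts of both strains were compared to see how far the starting levels differed, and the rule had not used this comparison. Ackr1 was 2.39-fold higher in DA than in Lewis normal endothelium (1.25 log2, 95% interval 0.63 to 1.87, limma adjusted p = 0.0449). The test called 0.485% of all genes higher and 0.528% lower in DA. The Ackr1 call did not survive the loss of any 1 of the 6 normal arrays: without DA replicates 1, 2 or 3 the limma adjusted p was 0.176, 0.0563 or 0.231, and without Lewis replicates 1, 2 or 3 it was 0.0695, 0.142 or 0.232, with differences of 1.13 to 1.43. Plvap was 0.71 higher in DA (interval 0.16 to 1.26) and did not pass (limma adjusted p = 0.376). For both genes all 3 DA arrays lay above all 3 Lewis arrays, but the share of all genes with this pattern was not counted.

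Other measures moved with the strain of the normal hearts. The endothelial list was level, at 12.2 in both. Of 11 measured cardiomyocyte genes 6 were called lower in DA, the list averaging 6.49 in DA and 7.67 in Lewis preparations, and among 10 mural cell genes Myh11, a smooth muscle myosin, was lower in DA. Whether these other cells had a part in the Ackr1 difference was not tested; with both genes taken relative to the endothelial list on the same array, the Ackr1 difference was 1.19 (limma adjusted p = 0.0545). Strain differences of RNA and of probe binding cannot be told apart here, since each gene had 1 probe set and probe sequences were not used.

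Whether the mismatch added to the change was tested as the allograft change minus the isograft change. Both genes were chosen for being high in both graft types, and this difference is built from those same values. The test is therefore not independent of the choice, and its outcome for these genes does not settle the question. For Ackr1 this was -0.42, 0.08 and 0.38 on days 2, 3 and 4 and 0.02 on average (95% interval -0.70 to 0.73, limma adjusted p = 1.0). For Plvap it was -0.44, -0.69 and -0.50, and -0.54 on average (interval -1.18 to 0.09, limma adjusted p = 1.0). Neither gene passed on any day or on average. Few genes passed at all: limma called 0.0% of genes on day 2 and 0.0% on day 3, where 480 and 334 genes had an unadjusted p under 0.05, and 0.00703% both on day 4 and on average.

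Between days 2 and 4 neither gene changed by a detectable amount. Plvap moved by 0.18 in isografts (95% interval -0.37 to 0.73, limma adjusted p = 0.999) and by 0.12 in allografts (-0.43 to 0.67, limma adjusted p = 0.929). Ackr1 moved by -0.41 in isografts (-1.03 to 0.21, limma adjusted p = 0.999) and by 0.39 in allografts (-0.23 to 1.01, limma adjusted p = 0.770). The test called 0.0352% of genes in isografts and 0.38% in allografts over this time. With arrays weighted by their quality, the Ackr1 rise in allografts was 0.71 and passed (limma adjusted p = 0.0497).

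The leukocyte arrays had been normalized apart from the endothelial arrays, so the median difference of 0.327 over all genes was removed before levels were set side by side. Plvap then read 8.31 on the day 2 leukocyte array, 8.94 and 8.80 on the day 3 arrays and 8.47 on the day 4 array. Ackr1 read 6.65, 7.24 and 7.41, and 6.92 on the same arrays. For both genes every leukocyte array lay below every allograft endothelial array. The share of all genes with this pattern was not counted. The pattern did not hold against normal endothelium. For Plvap the leukocyte arrays, at 8.31 to 8.94, lay above the Lewis normal arrays (7.68 to 8.29) and overlapped the DA normal arrays (8.46 to 9.29). For Ackr1 they read 6.65 to 7.41, overlapping the Lewis normal arrays (6.76 to 7.18) and below the DA normal arrays (7.90 to 8.45).

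The mean of leukocytes minus that of allograft endothelium was -2.05 for Plvap, 4.13-fold, and -3.66 for Ackr1, 12.7-fold. On the values as deposited it was -1.72 and -3.34. The day 3 leukocyte arrays, highest for both genes, also carried the most endothelial signal: the endothelial list averaged 9.52 and 10.2 there, against 8.38 on day 2 and 8.59 on day 4. Whether endothelial RNA accounts for their readings was not tested. The leukocytes are of the Lewis recipient and the endothelium of the DA donor, so cell type and strain cannot be told apart in this comparison. Isograft endothelium, of the Lewis strain like the leukocytes, read 10.16 to 11.03 for Plvap and 8.45 to 10.01 for Ackr1. Every leukocyte array lay below these ranges too, a difference that was not tested and whose share over all genes was not counted.

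Red cells can carry ACKR1 in humans, and none of their markers passed the test. In none of the 6 graft comparisons did limma call any of the 9 measured erythroid genes (of 16 listed), and 1, 0 and 0 of them in isografts and 1, 1 and 0 in allografts had an unadjusted p under 0.05. Of all genes 1.06%, 1.8% and 2.61% were called higher in isografts and 3.53%, 1.55% and 7.19% in allografts. The shares called lower were 0.422%, 0.732% and 0.556% in isografts and 2.45%, 0.724% and 4.26% in allografts. With shares this small, 0 calls among 9 genes is not far from the background. The list averaged 6.92 to 7.30 in the 8 groups, and 7 of the 9, among them the anion exchanger Slc4a1, the haemoglobin chaperone Ahsp and the factor Klf1, were under 7.63 in every group. Haemoglobin beta, Hbb, was bright throughout and differed by -0.37 to -0.84 in grafts. Lymphatic vessels are another vessel type in a heart preparation, and their 6-gene list averaged 7.52 in Lewis and 7.99 in DA normal endothelium and 8.45 to 9.27 in grafts. Pdpn and Lyve1 were called higher in all 3 isograft groups (Pdpn by 2.74 to 2.91, Lyve1 by 2.37 to 2.46), whereas Prox1, the lymphatic identity factor, differed by 0.93 to 1.10 and was not called. In allografts Pdpn was called on all 3 days (3.00, 1.76 and 2.65) and Lyve1 on day 2 (1.89), while Prox1 differed by -0.03 to 0.51. Over the 6 comparisons the list's other genes, Flt4, Ccl21 and Reln, differed by -0.12 to 0.36, -0.02 to 1.65 and 0.28 to 1.47, and none was called. These calls stand beside the shares of all genes called higher that are given above. The Pdpn calls held without any single array except in allografts of day 3, where the loss of any 1 of the 6 arrays compared ended the call (limma adjusted p = 0.0602 to 0.228). Lyve1 was no longer called in isografts without Lewis normal replicate 1 or 2, without any 1 graft array of day 2, or without replicate 2 of day 3 or replicate 3 of day 4 (up to 0.175). In day 2 allografts its call was lost without any 1 of the DA normal arrays or allograft replicate 3 (up to 0.231). The part of lymphatic cells in the Plvap and Ackr1 levels was not tested.

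Plvap and Ackr1 followed each other loosely once normal and graft hearts were parted. Over the 18 graft arrays their levels correlated with r = 0.52 and over the 6 normal arrays with 0.71, and after removal of the group means r was 0.46 over the 24 arrays. Arrays of 1 group share surgery, strain and day, so these values describe the arrays and are not a test.

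**Figure D3:**
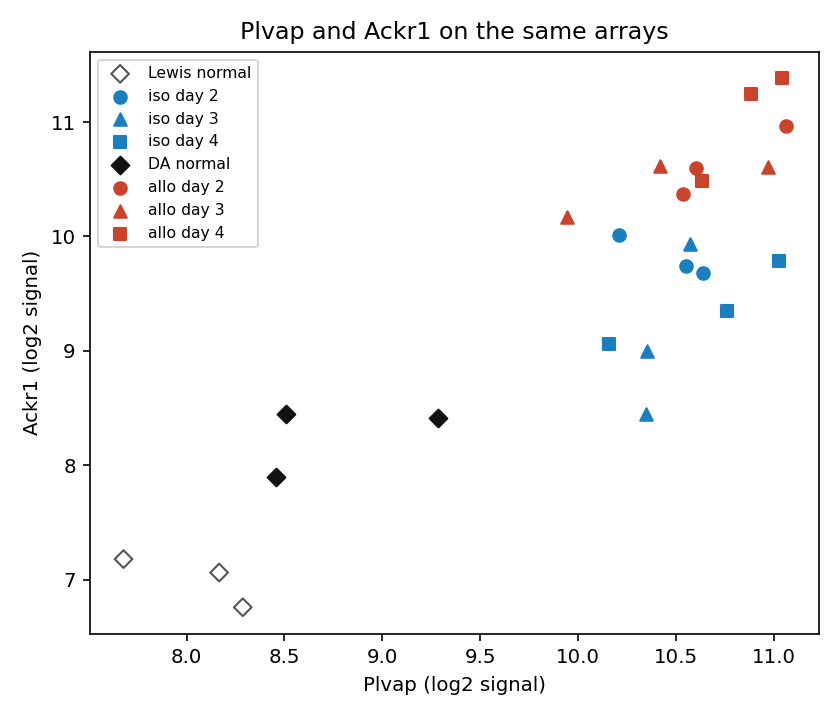
Plvap (x axis) against Ackr1 (y axis), both as log2 signal, on the 24 endothelial arrays. Each symbol is 1 array: diamonds are normal hearts (open for Lewis, filled for DA), blue isografts and red allografts, with circles for day 2, triangles for day 3 and squares for day 4. Blue and red symbols share the Plvap range, and red symbols lie above blue ones in Ackr1.

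The genes most like Plvap over the 24 arrays, by Pearson's r of their levels, were Fam167b (0.97), Sele (0.94), Dmbt1 (0.94), Slco2a1 (0.93), Eif3m (0.92) and Kank1 (0.92). Sele encodes E-selectin, on which leukocytes roll, and Slco2a1 a prostaglandin transporter. Like Plvap, Slco2a1 stood higher in isografts (2.61 to 2.75) and in allografts (1.92 to 2.26), and so did Dmbt1 (2.65 to 3.01 and 2.21 to 2.60). Ackr1 was in place 41 (r = 0.88), and 20 genes had an r above 0.9. These 6 genes and Plvap share the step from normal to graft, which enters the r. Within groups, the deviations of Plvap were most like those of Tmem178a (0.76), Lpar4 (0.76), Fam167b (0.76) and Mlec (0.75), so Fam167b alone stood in both sets.

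Nearest to Ackr1 were Hmgn3 (0.92), Tspan4 (0.92), Rpl41 (0.91), Vcam1 (0.91), Rpl6 (0.90) and Eef1d (0.90), and these 6 were the genes with an r above 0.9. Vcam1, the adhesion receptor for leukocyte integrins, resembled Ackr1 also in being 1.01 higher in DA than in Lewis normal endothelium (limma adjusted p = 0.216). Rpl41 and Rpl6 are ribosomal proteins and Eef1d an elongation factor, and their graft differences were small, 0.21 to 0.25 for Rpl41, 0.33 to 0.52 for Rpl6 and 0.40 to 0.59 for Eef1d. Within groups the nearest were Snx6 (0.74), Wipi2 (0.74), Mid1 (0.74) and Ppil1 (0.72), none of which is among the 6 above.

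**Figure D4:**
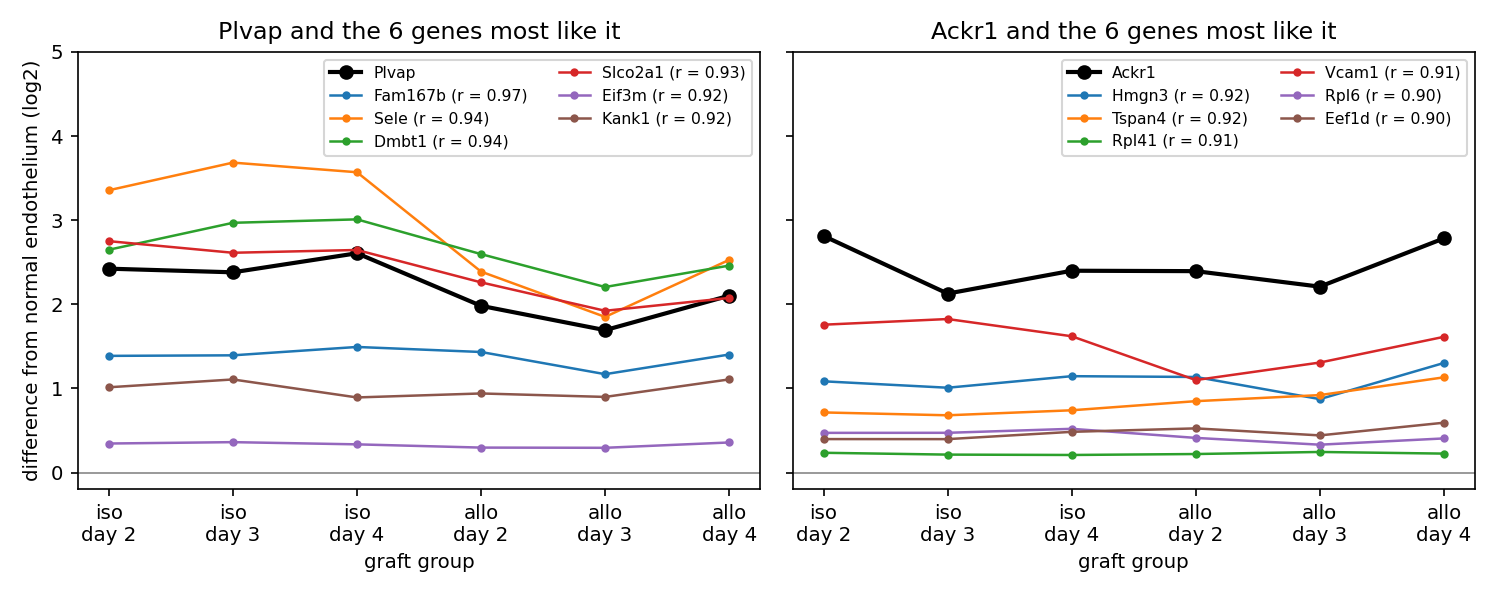
Difference from the strain's own normal endothelium (log2, y axis) in the 6 graft groups for Plvap (left, black) and Ackr1 (right, black) and the 6 genes with the highest Pearson's r over the 24 arrays (coloured, r in the legend). Sele, Dmbt1 and Slco2a1 run near or above the Plvap line, and every gene drawn beside Ackr1 runs below it.

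Among genes that mark venules, 3 adhesion receptors were called higher in all 6 comparisons. Of 12 venular genes 3 were called higher in each isograft group and 4, 3 and 4 in allografts of days 2, 3 and 4, while 3 were lower in day 4 allografts. The background over all genes was 1.06%, 1.8% and 2.61% higher in isografts, 3.53%, 1.55% and 7.19% higher in allografts, 0.422%, 0.732% and 0.556% lower in isografts, and 2.45%, 0.724% and 4.26% lower in allografts. Selp, the selectin released from endothelial storage granules, rose by 3.83 to 4.23 in isografts and 2.81 to 3.55 in allografts. Sele rose by 3.36 to 3.68 and 1.85 to 2.53, and Vcam1 by 1.62 to 1.82 and 1.10 to 1.61.

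The list's median difference was 0.58, 0.42 and 0.33 in isografts and 0.35, 0.26 and 0.31 in allografts, beside medians of all genes between -0.01 and 0.03. Icam1 stood 1.46 to 1.72 higher in isografts and 0.23 to 0.71 in allografts without passing. Nrp2, a VEGF and semaphorin coreceptor, and Aplnr, the apelin receptor, fell by 1.08 and 1.64 in day 4 allografts. With single arrays left out, the 4 higher genes of allograft day 2 became 2, the 3 of day 3 became 1 to 3, and the 3 lower genes of day 4 became 0 to 2. Selp passed without any single array. The Sele call of allograft day 3 was lost without DA normal replicate 2 (limma adjusted p = 0.0678), and the Vcam1 call of allograft day 2 without each of the 6 arrays compared (limma adjusted p = 0.0505 to 0.226). That of allograft day 3 was lost without each array but DA normal replicate 3 (up to 0.208). The falls of Nrp2 and Aplnr were lost without DA normal replicate 1, 2 or 3 or allograft replicate 3, and that of Nrp2 also without allograft replicate 1 (up to 0.117 and 0.225).

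Among 12 measured genes of the structures in which PLVAP sits, caveolae and their necks (13 listed), 1 was called higher in all 6 comparisons. It was Ehd4, an ATPase of the caveolar neck family, which stood higher by 0.85 to 0.88 in isografts and 0.76 to 1.03 in allografts. The list's median was below 0 in every comparison (-0.08 to -0.28), as was that of the general endothelial list (-0.08 to -0.40). In day 4 allografts 4 members were lower, among them the recycling ATPase Ehd1 (-0.97), the caveolar coat protein Cavin2 (-0.96) and the VEGF coreceptor Nrp1 (-0.92). The share of all genes called lower there was 4.26%. The falls of Ehd1 and Nrp1 passed without any single array, and that of Cavin2 did not without DA normal replicate 1, 2 or 3 or allograft replicate 2 or 3 (limma adjusted p up to 0.312). The Ehd4 call of allograft day 3 was lost without any 1 of the 6 arrays compared (limma adjusted p = 0.0538 to 0.197). Those of isografts were lost without Lewis normal replicate 1 or 3, and without isograft day 2 replicate 2, day 3 replicate 1 or 3 or day 4 replicate 3 (up to 0.189). Ehd1 and Nrp1 were lower in day 2 allografts too (-0.60 and -0.93), but Ehd1 did not pass there without any 1 DA normal array or allograft replicate 2 or 3, nor Nrp1 without allograft replicate 3 (up to 0.193 and 0.0567). Flot2, a flotillin of lipid rafts named after its values were seen, was 0.63 higher in day 4 allografts, a call lost without DA normal replicate 1 or 3 or allograft replicate 2 or 3 (up to 0.245).

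Capillary and arterial lists had medians below 0 in all 6 comparisons. So did the general endothelial list, at -0.08, -0.09 and -0.10 in isografts and -0.30, -0.15 and -0.40 in allografts. Among 13 measured capillary genes Angptl4, a secreted inhibitor of lipoprotein lipase that hypoxia is known to induce, was higher in all 6 comparisons (2.14 to 3.41 in isografts and 3.31 to 4.40 in allografts), and these calls held without any single array. No other capillary gene was called higher, 1 was lower in day 3 isografts, 2 in day 2 and 3 in day 4 allografts (0 to 9 with single arrays left out), and list medians ran from -0.07 to -0.60. The shares of all genes called lower in these comparisons were 0.732%, 2.45% and 4.26%. The VEGF receptor Kdr fell by 1.04 in day 2 allografts, also without any single array. Of 10 measured arterial genes, with list medians of -0.10 to -0.27, Unc5b, a netrin receptor, was lower in all 3 allograft groups (-1.01 to -1.16) and the Notch ligand Dll4 in all 3 isograft groups (-0.76 to -0.93). Unc5b passed on day 4 without any single array, but not on days 2 and 3 without DA normal replicate 1 or 3, nor on day 3 without allograft replicate 2 or 3 (limma adjusted p up to 0.278). Dll4 did not pass in isografts without Lewis normal replicate 1 or 2, nor without day 2 replicate 3 or any 1 graft array of days 3 and 4 (up to 0.206). With the mean over each gene's probe sets, no arterial gene was called lower in isografts, Dll4 included. Allografts also had Dll4 lower on day 2 (-0.84) and Hey1, a target of Notch, on day 4 (-1.34), both lost without replicate 3 of that allograft group (limma adjusted p = 0.0682 and 0.0719). In the other direction, the gap junction gene Gja4 was 0.85 higher in day 2 and 1.02 higher in day 4 allografts. Its day 4 call held without any single array, and its day 2 call was lost without DA normal replicate 2 or 3 or allograft replicate 3 (limma adjusted p up to 0.0774).

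**Figure D5:**
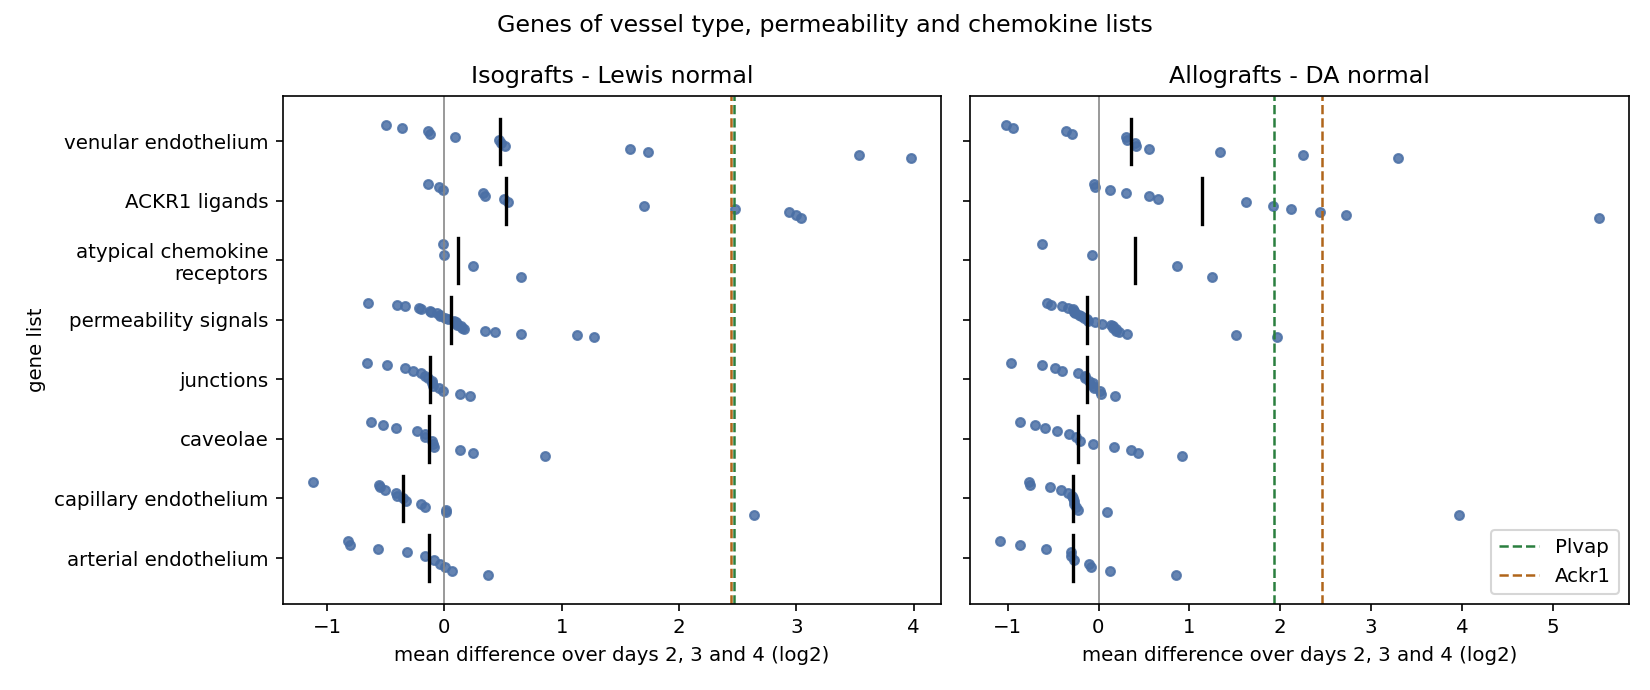
Mean difference from normal endothelium over days 2, 3 and 4 (log2, x axis) for each measured gene of 8 lists, in isografts (left) and allografts (right). Each point is 1 gene, black bars are list medians, and dashed lines give the mean differences of Plvap and Ackr1. Most genes of the junction, caveolar, capillary and arterial lists lie near or below 0, with Angptl4 far to the right of its list.

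Signals that open or close the endothelial barrier were mostly level. Of 24 such genes 1, 2 and 1 were called higher in isografts and 2 on each day in allografts, and 1 was lower on each isograft day. Over all genes 1.06%, 1.8% and 2.61% were called higher and 0.422%, 0.732% and 0.556% lower in isografts. In allografts these shares were 3.53%, 1.55% and 7.19% higher and 2.45%, 0.724% and 4.26% lower. Angpt2, which loosens vessels by competing at the TIE2 receptor, was higher in all 6 comparisons (0.96 to 1.47 in isografts and 1.18 to 1.77 in allografts), also without any single array. Pgf, a ligand of the VEGF receptor FLT1, was 1.63 to 2.27 higher in allografts and 1.54 higher in day 3 isografts, the latter call being lost without any 1 of the 6 arrays compared (limma adjusted p = 0.0814 to 0.159). Mylk, the myosin light chain kinase of contraction, differed by -0.55 to -0.72 in isografts and by -0.68 in day 2 allografts. In allografts 2 genes were lower on day 2, Mylk and Rapgef3 (-0.57), and 2 on day 4, Rapgef3 (-0.70) and Tek (-0.55). Rapgef3, the cAMP sensor EPAC1, and Tek, the TIE2 receptor itself, were named after their values were seen. The Rapgef3 call of day 4 held without any single array, that of day 2 was lost without DA normal replicate 2 or 3 or allograft replicate 1 or 2, and the Tek call without any 1 DA normal array or allograft replicate 2 or 3 (limma adjusted p up to 0.120 and 0.324). Of 14 measured junction genes limma called 0 in isografts (2, 3 and 2 had an unadjusted p under 0.05). In day 4 allografts 4 were lower, Jup (-1.36), Jam3 (-0.98), Afdn (-0.74) and Tjp1 (-0.58). The Jup and Afdn falls and the Mylk falls passed without any single array. With the mean over each gene's probe sets, however, no permeability gene was called lower in isografts, Mylk included. The Jam3 and Tjp1 calls were lost without DA normal replicate 1, 2 or 3 or allograft day 4 replicate 2 or 3 (limma adjusted p up to 0.309 and 0.204), and the Pgf call of day 3 without any 1 of these DA arrays or allograft day 3 replicate 2 or 3 (up to 0.226).

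Some of the chemokines that ACKR1 can bind were called higher in grafts, at most 7 of 12 in a comparison. Of 12 ligands, listed from human and mouse proteins, 3, 5 and 5 were called higher in isografts and 6, 3 and 7 in allografts, and 0 lower. Over all genes the shares called higher were 1.06%, 1.8% and 2.61% in isografts and 3.53%, 1.55% and 7.19% in allografts. Ccl7, a monocyte attractant, was higher in all 6 comparisons (2.63, 3.08 and 3.40 in isografts and 2.76, 2.26 and 3.15 in allografts). Ccl2 was higher by 2.27 to 2.68 in isografts, and in allografts by 1.97 on day 2 and 2.50 on day 4. Cxcl11, an interferon-induced attractant of T cells, reached 6.83 in day 4 allografts. List medians were 0.40, 0.63 and 0.67 in isografts and 0.91, 0.79 and 1.53 in allografts. Macrophage markers, a source of some of these chemokines, averaged 6.36 in Lewis and 6.33 in DA normal endothelium, 7.84, 8.63 and 9.32 in isografts and 9.14, 8.56 and 9.48 in allografts; their part in the ligand values was not tested.

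The Ccl2 call of allograft day 2 was lost without DA normal replicate 1 or 2 or allograft replicate 3 (limma adjusted p up to 0.094). Without Lewis normal replicate 1 or 3, or without isograft day 2 replicate 2, no ligand was called in day 2 isografts. The Ccl7 call of allograft day 3 was lost without DA normal replicate 1 or 2 or allograft replicate 2 or 3 (limma adjusted p up to 0.177). Of the 4 other receptors of the atypical family or close to it, Ackr2, a scavenger of inflammatory CC chemokines, and Ccrl2, a chemerin-binding relative, were called higher in day 4 allografts (1.80 and 1.16). In that comparison 7.19% of all genes were called higher. Ackr3 differed by -0.26 to 0.16 and Ackr4 by -0.80 to 0.26, and neither was called in any comparison. The Ccrl2 call was lost without DA normal replicate 2 or without allograft replicate 2 or 3 (up to 0.0758).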

How the data were processed

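RNA of 24 endothelial and 4 leukocyte preparations was measured on 1-colour arrays. The authors deposited log2 signals per probe set made with RMA in the affy package, per the submitters' processing notes (version not given in the sources used). The leukocyte arrays (medians 6.83 to 6.88) had been normalized apart from the endothelial arrays (6.51 to 6.59). Values were used as deposited, and samples were grouped by the labels.

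Of 31099 probe sets, 57 controls, 436 of several genes and 9780 unlisted ones were left out. The brightest of each gene's probe sets gave 14217 genes. Symbols came from the platform annotation and RefSeq. limma 3.58.1 (lmFit and eBayes, R 4.3.3) modelled 8 group means over the 24 endothelial arrays, leaving 16 residual degrees of freedom. Benjamini-Hochberg adjustment covered all genes, and an adjusted p under 0.05 made a call. The fit was tested on simulated data. Arrays have no counting depth; their number limits the precision.

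The members and the gene lists were chosen with earlier results of these data known, so list counts are descriptions. Named were the members, the 6 genes most like each in level and 4 in deviation from group means, and of each of the 8 pathway lists (101 of 107 genes measured) up to 6 with the largest mean graft difference, those called in all 6 comparisons, and every chemokine receptor. Pdpn, Lyve1, Prox1, Flt4, Ccl21, Reln, Postn, Dcn, Hbb and Myh11 come from the cell type lists. Alternatives were the mean over probe sets, centred or quantile-normalized arrays, a filter on dim genes, a trended robust prior, array weights, a replicate block, fits of only the groups compared, levels relative to endothelial markers, other day pairs and each array left out. P-values measure the spread between biological replicates; whether each was 1 animal is not stated.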

Additional observations from a re-analysis of the deposited data

How the results depend on the processing

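The number of arrays, 3 a group, sets the limits here. Every graft minus normal difference of Plvap and Ackr1 kept its direction under every alternative, but these are the differences by which the genes were chosen. The mean over probe sets, the filter on dim genes and the trended robust prior could not change them. Neither could the replicate block or fits of only the groups compared. Of 470 repeated member results, 439 kept direction and, where tested, side of the threshold, and 20 reversed direction. The 439 include these graft minus normal repeats that could not change. The graft minus normal and leukocyte differences among the 470 were not tested and have no threshold to keep. Taken relative to the endothelial markers, Plvap differed by 2.34 and 2.47 in allografts of days 2 and 4, and the Ackr1 strain difference was 1.19 (limma adjusted p = 0.0545). With array weights the Ackr1 change from day 2 to 4 in allografts was 0.71 and passed. Over 4 other day pairs the sign was opposite to that from day 2 to 4: Plvap differed by -0.043 (isografts) and -0.29 (allografts) and Ackr1 by -0.18 (allografts) from day 2 to 3, and Ackr1 by 0.27 from day 3 to 4 in isografts. The remaining pairs were -0.69 for Ackr1 from day 2 to 3 in isografts (unadjusted p = 0.0322) and, from day 3 to 4, 0.23 for Plvap in isografts and 0.57 for Ackr1 and 0.41 for Plvap in allografts. None passed (limma adjusted p of 0.575 or more), and the causes were not tested.

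With each array left out in turn, the Ackr1 difference of day 3 isografts was 1.72 to 2.47 and its strain difference 1.13 to 1.43. The Plvap change from day 2 to 4 in isografts was -0.0062 to 0.43. The Ackr1 difference of changes was -0.26 to 0.49 on day 3 and -0.16 to 0.15 on average. Replicate numbers were not used to pair arrays in the main fit. Deviations of same-numbered arrays correlated with a mean r of 0.10 (-0.35 to 0.58) over 84 pairs. Those of different-numbered arrays did so with -0.05 (-0.62 to 0.50) over 168 pairs. Whether the numbers mark something shared was not tested. With the replicate block the Ackr1 strain difference was 1.25 (limma adjusted p = 0.0426), and no call of Plvap or Ackr1 changed. Fitting every other probe set could not be run, each gene having 1.

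Of 768 repeats of the list counts with all arrays, 61 were over 1.5 times higher and 38 as much lower, mostly with array weights or with only the groups compared. In isografts of days 2, 3 and 4 and then allografts, higher venular genes ranged over 3 to 4, 3 to 6, 3 to 4, 2 to 5, 3 to 3 and 2 to 8, and lower ones in day 4 allografts over 0 to 3. Higher ligands ranged over 1 to 4, 5 to 5, 5 to 6, 5 to 7, 3 to 4 and 6 to 7. In day 4 allografts, lower caveolar genes ranged over 2 to 7, lower junction genes over 2 to 7, lower capillary genes over 0 to 8 and higher chemokine receptors over 1 to 2, and higher permeability genes over 2 to 6. Junction genes lower in isografts ranged over 0 to 3, permeability genes higher in day 3 isografts over 1 to 4 and permeability genes lower in isografts over 0 to 1.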
